A study of Mus musculus with 4 samples.

Results

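In ovaries of E14.5 mouse embryos, 1888 of the 10494 RUNX1 peaks lay just upstream of the transcription start site (TSS) of a single protein-coding gene. A peak was placed by its midpoint and kept when all curated RefSeq TSSs within 1 kb belonged to 1 gene, that gene was protein-coding, and the midpoint was upstream of the nearest of these TSSs on the strand of the gene. Of all peaks, 10490 lay on chromosomes 1 to 19 and X. The upstream peaks belonged to 1859 genes. The nearest class for comparison was the 4468 downstream peaks, which met the same rule with the midpoint at or past the TSS. Another 941 peaks lay between divergent pairs of TSSs, 427 near TSSs of other sets of 2 or more genes, 168 near a single noncoding gene, 916 at 1 to 10 kb from the nearest TSS and 1682 over 10 kb from every TSS.

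RUNX1 is a DNA-binding transcription factor that pairs with CBFB and recognises a short core, TGTGGT or TGCGGT. In the fetal ovary it is known from the pre-granulosa cells, the supporting cells that later surround the oocytes, while it is best studied in blood formation. The stretch before a TSS is where general and sequence-specific factors assemble with RNA polymerase II. Many mouse promoters are CpG islands, GC-rich stretches that keep their CpG dinucleotides and often start transcription over a broad region.

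The chromatin came from CD1 (outbred) female embryos, for which the labels name no altered allele and no treatment, as pools of ovaries freed of the mesonephros. There were 2 RUNX1 ChIP replicates, done as independent experiments, and 2 input replicates, and the antibody was against RUNX1 itself. Whole ovaries hold germ, interstitial, endothelial and blood cells beside pre-granulosa cells, so the peaks do not tell in which cell type RUNX1 was bound. The authors called peaks on merged replicates, so each peak has 1 fold and 1 p-value, with no error between replicates. The fold is the peak caller's ratio over background, with 4 as the authors' lower limit. The number of reads behind a peak is not in the list, and the depth of a single value is unknown. Tests below compare numbers of peaks between classes of this list. Peaks are not biological replicates, and the p-values describe this list alone.

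To show what such a promoter stretch looks like, sequence around the RUNX core is given for strong upstream peaks in which the core lay before the TSS and outside the exons of curated and predicted RefSeq transcripts, 5′ to 3′ on the strand of the gene (mm10). Capitals mark the core, which reads TGTGGT or TGCGGT on the strand of the gene and ACCACA or ACCGCA on the other. Of those eligible, the 4 of highest fold were at Pcyt1a, which encodes a rate-limiting enzyme of phosphatidylcholine synthesis (chr16:32430811-32430900, 21 to 110 bp before the TSS, plus strand, fold 87.93), Zc3h6, a zinc finger gene (chr2:128967150-128967239, 163 to 252 bp before the TSS, plus strand, fold 45.82), Snx12, a sorting nexin gene (chrX:101222689-101222763, 126 to 200 bp before the TSS, minus strand, fold 38.03), and Adnp, a homeobox protein gene (chr2:168207389-168207478, 277 to 366 bp before the TSS, minus strand, fold 37.36).
Pcyt1a: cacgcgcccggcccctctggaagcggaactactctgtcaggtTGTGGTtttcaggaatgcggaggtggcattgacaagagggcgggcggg
Zc3h6: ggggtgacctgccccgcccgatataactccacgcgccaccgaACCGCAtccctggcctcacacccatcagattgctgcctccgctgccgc
Snx12: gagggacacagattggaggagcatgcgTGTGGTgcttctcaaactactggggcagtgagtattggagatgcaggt
Adnp: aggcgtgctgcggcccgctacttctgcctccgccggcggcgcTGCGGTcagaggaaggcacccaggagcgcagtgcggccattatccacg

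The next set shows the strongest such peak among RUNX partners and gonadal genes. Crebbp encodes a histone acetyltransferase that acts with RUNX proteins (chr16:4214159-4214248, 755 to 844 bp before the TSS, minus strand, fold 17.45). Kdm3a encodes a histone demethylase needed for expression of Sry (chr6:71633401-71633460, 484 to 543 bp before the TSS, minus strand, fold 27.40), and Pdgfra a growth factor receptor of interstitial cells (chr5:75155756-75155845, 321 to 410 bp before the TSS, plus strand, fold 9.81). Gata4, a factor of the early gonad (chr14:63245462-63245551, 191 to 280 bp before the TSS, minus strand, fold 12.03), and Runx3 (chr4:135152174-135152263, 282 to 371 bp before the TSS, plus strand, fold 4.83) were added after their values were seen.
Crebbp: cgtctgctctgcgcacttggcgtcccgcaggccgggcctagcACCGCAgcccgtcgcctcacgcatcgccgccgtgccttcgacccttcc
Kdm3a: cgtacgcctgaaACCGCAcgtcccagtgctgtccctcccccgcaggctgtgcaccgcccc
Pdgfra: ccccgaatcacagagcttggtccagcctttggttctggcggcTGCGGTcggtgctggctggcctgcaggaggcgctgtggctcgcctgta
Gata4: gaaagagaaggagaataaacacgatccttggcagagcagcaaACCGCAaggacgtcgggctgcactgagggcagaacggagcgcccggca
Runx3: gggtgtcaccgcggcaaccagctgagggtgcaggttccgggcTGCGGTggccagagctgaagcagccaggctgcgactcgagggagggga

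The last set gives the strongest such peak of signalling and chromatin lists. Wnt6 is a WNT ligand gene (chr1:74771079-74771168, 724 to 813 bp before the TSS, plus strand, fold 17.03), Bmpr1a a BMP receptor gene (chr14:34503086-34503173, 540 to 627 bp before the TSS, minus strand, fold 16.04), Nf2 an upstream gene of the Hippo pathway (chr11:4849627-4849716, 83 to 172 bp before the TSS, minus strand, fold 7.87) and Spen a corepressor gene of Notch signalling (chr4:141538809-141538898, 212 to 301 bp before the TSS, minus strand, fold 35.54). Etv6 encodes an ETS repressor (chr6:134035313-134035399, 301 to 387 bp before the TSS, plus strand, fold 17.59), Wdr5 a core subunit of histone methyltransferase complexes (chr2:27515035-27515120, 27 to 112 bp before the TSS, plus strand, fold 9.26) and Suz12 a core subunit of the Polycomb repressive complex with methyltransferase activity (chr11:79992660-79992712, 394 to 446 bp before the TSS, plus strand, fold 13.51).
Wnt6: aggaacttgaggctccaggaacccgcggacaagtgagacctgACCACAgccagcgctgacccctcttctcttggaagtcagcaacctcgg
Bmpr1a: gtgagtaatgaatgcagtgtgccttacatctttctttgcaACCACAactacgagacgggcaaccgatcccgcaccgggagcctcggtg
Nf2: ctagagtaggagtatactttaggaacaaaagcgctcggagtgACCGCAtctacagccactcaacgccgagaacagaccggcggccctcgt
Spen: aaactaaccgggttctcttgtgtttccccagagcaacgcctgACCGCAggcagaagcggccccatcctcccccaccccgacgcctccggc
Etv6: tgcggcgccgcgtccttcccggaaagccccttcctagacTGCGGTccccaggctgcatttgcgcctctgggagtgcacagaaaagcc
Wdr5: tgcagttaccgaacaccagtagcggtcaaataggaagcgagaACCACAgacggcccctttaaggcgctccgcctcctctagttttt
Suz12: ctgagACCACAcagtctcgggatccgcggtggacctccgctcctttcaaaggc

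Upstream peaks crowded near the TSS. The median midpoint was 156 bp before it (quartiles 68.8 and 292 bp), against a median of 185.5 bp past the TSS for downstream peaks. The number of peaks fell from 359 in the first 50 bp before the TSS to 306, 248 and 197 in the next bins of the same width. Past the TSS the bins held 463, 689, 674 and 530 peaks, so the highest bin lay inside the transcribed side. With a width of 300 bp, 913 upstream peaks (48.4%) still covered the TSS and 975 lay wholly before it. Of peaks near a single coding gene, 29.7% were on the upstream side.

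**Figure D1:**
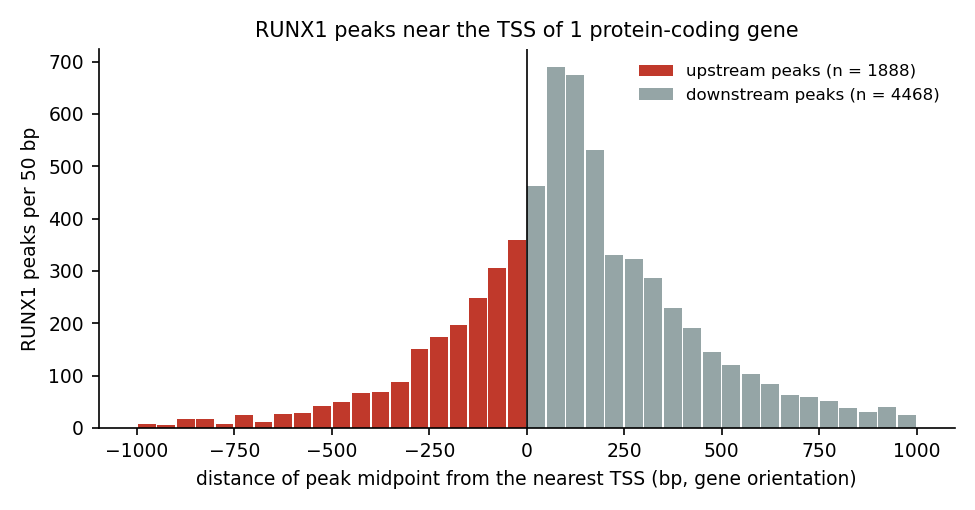
Number of RUNX1 peaks per 50 bp (y axis) by the distance of the midpoint from the nearest TSS in bp, in the orientation of the gene (x axis), for 1888 upstream peaks (red) and 4468 downstream peaks (grey). Upstream peaks are most frequent in the bin next to the TSS (359) and number at most 28 in each bin beyond 550 bp, and the downstream side peaks at 689 between 50 and 100 bp.

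At both limits of the rule there were peaks of high and of low fold. Just inside, peaks with midpoints 1 bp before the TSS were ranked by fold, and only the highest are named. They were at Clasp2, a microtubule plus-end protein gene (fold 10.05), Kdm5c, a histone demethylase gene (17.59), and Haus5, a gene of spindle assembly (17.67). On the TSS itself, and so counted as downstream, were 5 midpoints, at Gpr39 (fold 17.90), Zmym1 (7.14), Dnajc14 (6.58), Dcakd (5.22) and Slc25a26 (4.27). At the far end, the midpoint at Sh3rf3 was 1000 bp before the TSS (fold 18.28), at Maoa 979 bp (8.33) and at Kdm2a 976 bp (4.25). Those at Mex3b, Skil and Atf6 were 1009, 1018 and 1041 bp before it (folds 20.53, 11.37 and 9.26) and stayed outside. The lowest fold among upstream peaks was 4.01, shared by 3110082I17Rik, Asap2 and Bmper among others.

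Upstream peaks had a median fold of 6.76 (quartiles 5.16 and 9.56), against 6.35 for downstream peaks and 6.53 for divergent pairs. The median was 6.52 for peaks at 1 to 10 kb from the nearest TSS and 6.17 for peaks over 10 kb from every TSS. By the peak caller's p-value the order differed. Values under 1e-20 were given to 39.7% of upstream peaks, 42.6% of divergent pairs and 34.4% of downstream peaks. The share was 31.0% for peaks at 1 to 10 kb from the nearest TSS and 18.8% for peaks over 10 kb from every TSS. A fold of 8 or more was reached by 694 upstream peaks (36.8%), where 32.1% of all placed peaks reached it. Downstream peaks reached it in 1341 of 4468 cases (30.0%), an odds ratio of 1.36 (95% interval 1.21 to 1.52, two-sided Fisher's exact test, p = 1.87e-07). Upstream peaks were also slightly poorer in GC (mean 65.5% against 68.2%). Within bins of GC content the odds ratio was 1.39 (1.24 to 1.56, Mantel-Haenszel). The difference was one of shares in the upper range, while the quartile ranges of both classes overlapped widely. Many folds were tied: the 1888 upstream folds took 458 distinct values, with 5.55 given to 61 peaks.

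Fold did not follow the distance to the TSS within the upstream kilobase (Spearman's rho 0.04 over the 1888 peaks, a description). Medians by distance ran from 6.48 at under 50 bp to 7.10 at 200 to 300 bp and 6.85 at 500 to 1000 bp, each with quartiles that spanned all the other medians. In the downstream class the medians of the same bins lay between 6.25 and 6.48.

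**Figure D2:**
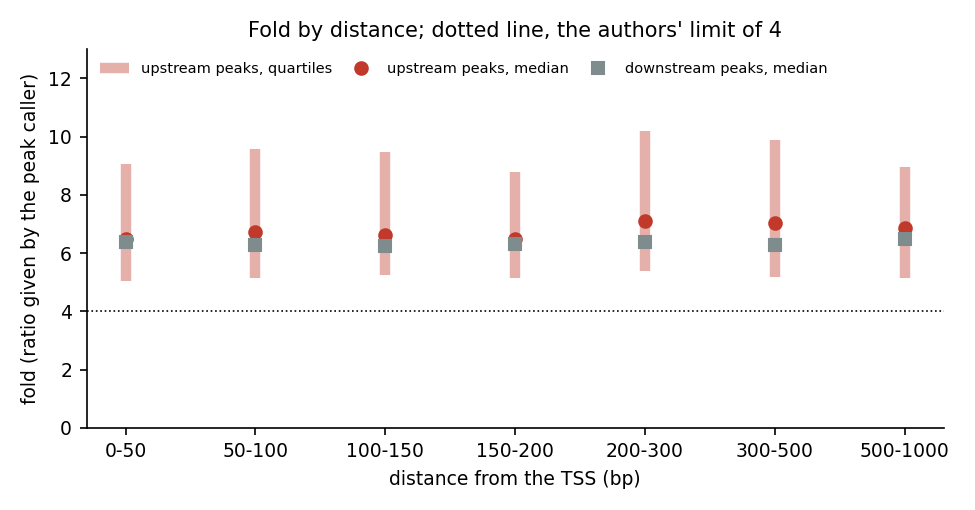
Fold given by the peak caller (y axis, linear, from 0) in bins of distance from the TSS in bp (x axis), with medians (red points) and quartiles (red bars) of upstream peaks and medians of downstream peaks (grey squares). Medians of upstream peaks stay between 6.48 and 7.10, above those of downstream peaks in every bin by less than the width of the quartile bars.

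The strongest upstream peak was that of Kmt2a, which encodes a histone methyltransferase. It had a fold of 358.22 and a midpoint 215 bp before the TSS. It held no RUNX core and 4 GGGCGG boxes. Myl6, a myosin light chain gene, followed with a fold of 144.40 at 203 bp. The Myl6 peak was the only one of fold 40 or more outside the CpG-rich class, and it held a CTCF site and no RUNX core. Next came Pcyt1a, with a fold of 87.93 at 78 bp and 1 RUNX core as printed above, beside 1 ETS site and 1 TEAD site.

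The other strong peaks were at genes of varied function. Fam117b had a fold of 54.61 at 328 bp. Mkx, a homeobox gene of tendon, had 52.36 at 24 bp with a core, and Sox11, an HMG box factor gene, 49.06 at 237 bp without one. Hnrnpr, a gene of RNA binding, had 48.75 at 147 bp, Abhd17a, a depalmitoylase gene, 46.28 at 19 bp, and Zc3h6 45.82 at 104 bp, each with a TGCGGT core. Rfx3, a gene of cilium formation, Ski, a repressor of TGF-β signalling, and Zfp523 shared a fold of 44.43, and of these Rfx3 alone held a core. Of the 12 upstream peaks of fold 40 or more, 6 held a core, TGCGGT in 5 and TGTGGT in 1, and 11 held a GGGCGG box.

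A RUNX core was found in 692 upstream peaks (36.7%, exact 95% interval 34.5 to 38.9%), below the 39.9% of all placed peaks. Peaks between divergent pairs held it in 35.7% of cases and peaks at 1 to 10 kb from the nearest TSS in 50.7%. The core was searched as TGTGGT or TGCGGT on both strands of the 300 bp. The same search found it in 20.8% of 18182 promoter windows of the same length and in 20.3% of the 12521 of these without a peak. The windows were placed at the median distance of the upstream peaks. TGCGGT was in 24.5% of upstream peaks against 6.21% of all promoters, and TGTGGT, which holds no CpG, in 14.46% against 15.4%. Of all placed peaks, 23.7% held TGCGGT and 19.5% held TGTGGT. The promoter windows were poorer in GC (mean 53.2%). At matched GC content TGTGGT was also more frequent in upstream peaks than in promoters without a peak up to 70% GC, with 45.9% against 18.5% under 50% GC, 24.9% against 15.8% at 55 to 60% and 11.9% against 8.21% at 65 to 70%. From 70 to 75% GC it was less frequent (5.58% against 8.33%), and at 75% GC or more it was again more frequent (5.61% against 2.78%).

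Against downstream peaks, of which 32.3% held a core, the odds ratio was 1.21 (1.08 to 1.36, two-sided Fisher's exact test, p = 0.000828). Within 10 bins of GC content it was 1.07 with an interval that held 1 (0.948 to 1.198), and the call was lost. Against peaks over 10 kb from every TSS, of which 61.3% held a core, the odds ratio was 0.365 (0.318 to 0.419, Fisher's exact test, p = 2.39e-49). In GC bins it was 0.783 (0.662 to 0.925). For TGCGGT alone the share was 22.9% in those distal peaks, and the direction turned, to an odds ratio of 1.09 (Fisher's exact test, p = 0.288).

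**Figure D3:**
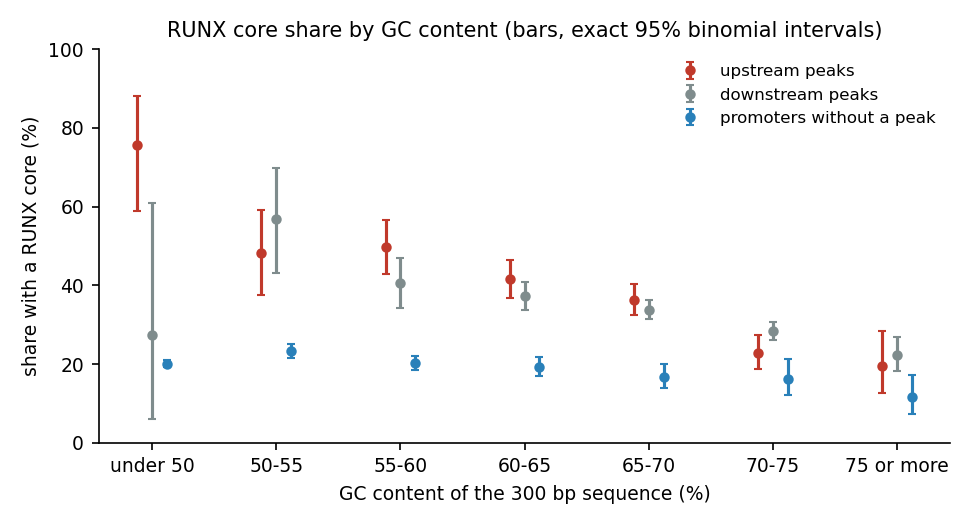
Share of sequences with a RUNX core in percent (y axis, with exact 95% binomial intervals) by the GC content of the 300 bp in percent (x axis), for upstream peaks (red), downstream peaks (grey) and promoters without a peak (blue). The share in upstream peaks drops from 75.7% under 50% GC to 19.6% at 75% GC or more, and that of promoters without a peak from 20.1% to 11.7%.

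The core was most common in the few upstream peaks of low GC content. Under 50% GC it was in 28 of 37 upstream peaks (75.7%, 58.8 to 88.2%), against 20.1% of 6266 promoters without a peak at that GC content. Downstream peaks held a core in 3 of 11 cases under 50% GC. From 50 to 55% GC the shares were 48.3% of upstream and 56.9% of downstream peaks, from 55 to 60% GC 49.8% and 40.5%, and from 70 to 75% GC 22.8% and 28.4%, so neither side was higher throughout. Upstream peaks outside the CpG-rich class (352, 18.6%) held a core in 49.7% of cases, and the 1536 within it (at least 55% GC and an observed to expected CpG ratio of at least 0.65) in 33.7%. The CpG-rich share itself, 81.4%, lay between that of downstream peaks (88.5%) and that of distal peaks (19.5%), and was 26.2% over all promoters.

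Upstream peaks with a core were stronger. A fold of 8 or more was reached by 314 of the 692 with a core (45.4%) and 380 of the 1196 without (31.8%), an odds ratio of 1.78 (1.46 to 2.17, two-sided Fisher's exact test, p = 4.71e-09). Within GC bins it was 1.81 (1.48 to 2.21). Median folds were 6.48 with no core, 7.23 with 1 core (572 peaks), 8.29 with 2 (106 peaks) and 9 with 3 or more (14 peaks). Read the other way, the core share was 29.2% in the 472 peaks of lowest fold and 48.7% in the 472 of highest, with mean GC contents of 65.4% and 65.2%. The shares of TGCGGT were 18.01% and 35.2%, and those of TGTGGT 12.3% and 17.6%. With TGTGGT alone as the core the odds ratio was 1.28 (exact p = 0.0671), and among peaks of p under 1e-20 it was 1.14 (exact p = 0.457), so that both missed the threshold.

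The 831 cores in upstream peaks were gathered at the midpoint. Of these, 398 (47.9%) had their centre within 50 bp of it, a stretch that makes up 33.3% of the peak. In the central 100 bp there were 0.209 cores per 100 peaks per bp, against 0.0879 on the 5′ side and 0.0745 on the 3′ side at 500 to 1000 bp from the midpoint, and 0.162 in the centre of downstream peaks. Cores had no preferred strand: 396 (47.7%, 44.2 to 51.1%) read TGTGGT or TGCGGT on the strand of the gene. Before the TSS lay 759 cores (91.3%), where 86.9% of all bases of the upstream peaks lie. Their median distance was 187.5 bp. The largest number in a peak was 5, at Ndufs7, a subunit gene of respiratory complex I (fold 11.72).

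**Figure D4:**
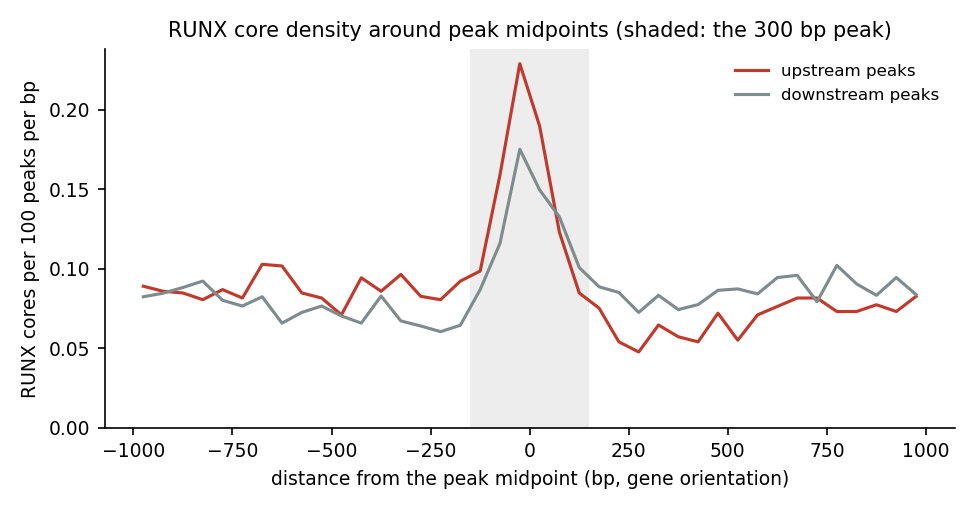
RUNX cores per 100 peaks per bp (y axis, from 0) by position relative to the midpoint of the peak, in bp and gene orientation (x axis), for upstream (red) and downstream (grey) peaks, with the 300 bp peak shaded. Both lines rise at the midpoint, to 0.229 for upstream and 0.175 for downstream peaks, from under 0.11 in every bin beyond the shaded stretch.

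Other consensus sites were compared between the upstream and the downstream side. Of 13 consensus sites, 11 differed between upstream and downstream peaks (Fisher's exact test, Benjamini-Hochberg adjusted p under 0.05), 10 of them more common upstream. CCAAT, the box bound by NFY, was in 31.5% of upstream and 17.6% of downstream peaks, an odds ratio of 2.15 (1.89 to 2.43, adjusted exact p = 1.00e-31). It was in 40.03% of all promoters, 27.5% of peaks between divergent pairs and 28.5% of distal peaks. GGGCGG, bound by SP and KLF factors, was in 70.8% against 64.3% (odds ratio 1.35, adjusted exact p = 2.21e-06). TGACGTCA, the cAMP response element, was in 3.602% against 1.54% (2.38, adjusted exact p = 3.12e-06), GCATGCGC, the NRF1 site, in 4.13% against 2.06% (2.05, adjusted exact p = 1.53e-05), and CACGTG, an E-box, in 11.8% against 8.19% (1.501). Peaks between divergent pairs held the cAMP response element in 3.08% and the NRF1 site in 3.19% of cases.

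Forkhead and GATA sites were more frequent in upstream than in downstream peaks and less frequent than in promoters, the latter untested. The forkhead site (TATTTAC or TGTTTAC), which FOXL2 can bind, was in 69 upstream peaks (3.65%) against 1.68% of downstream peaks, an odds ratio of 2.22 (adjusted exact p = 1.20e-05), but in 6.79% of all promoters and 7.07% of peaks over 10 kb from every TSS. The GATA site (AGATAA or TGATAA) was in 6.78% against 3.18% (2.22, adjusted exact p = 2.49e-09), and in 19.4% of all promoters and 25.3% of those distal peaks. Base composition differed between these sets, as given above. Within GC bins the odds ratios against downstream peaks fell to 1.66 (1.18 to 2.34) for forkhead and 1.52 (1.18 to 1.97) for GATA. The NR5A site (CAAGGTCA or CAAGGCCA) was in 2.86% against 2.64%, and its odds ratio of 1.09 (0.768 to 1.52) missed the threshold, as did that of TEAD (AGGAATG or GGGAATG; 1.19, 0.937 to 1.52). The CTCF site was in 19 upstream peaks (1.01% against 0.403%, odds ratio 2.51), with 3.75% in distal peaks. YY1 (AAGATGGC) was the only site with a lower share upstream, at 3.23% against 4.43% (0.720, adjusted exact p = 0.0343).

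Within GC bins 9 of the 13 sites passed. The ETS site, CCGGAAGT (6.41% against 5.01%), fell to an odds ratio of 1.09 and the TATA site (TATAAA or TATATA; 4.18% against 2.22%) to 1.34, while that of GGGCGG rose to 1.93. The sites took different places in the upstream peaks. Of CRE matches 69.0%, of NRF1 62.0%, of CCAAT 56.3% and of ETS 52.3% lay within 150 bp before the TSS, a stretch that holds 31.7% of the bases of these peaks. The shares were 35.0% for the RUNX core, 22.5% for forkhead and 18.5% for NR5A. A RUNX core was in 45.5% of upstream peaks with an ETS site and 36.05% of those without. For GATA the shares were 47.7% and 35.9%, and for GGGCGG the order was the opposite, 32.9% and 45.7%. These pairs were not tested, and mean GC content moved with them (63.5% with an ETS site, 59.1% with a GATA site, 67.0% with a GGGCGG box).

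**Figure D5:**
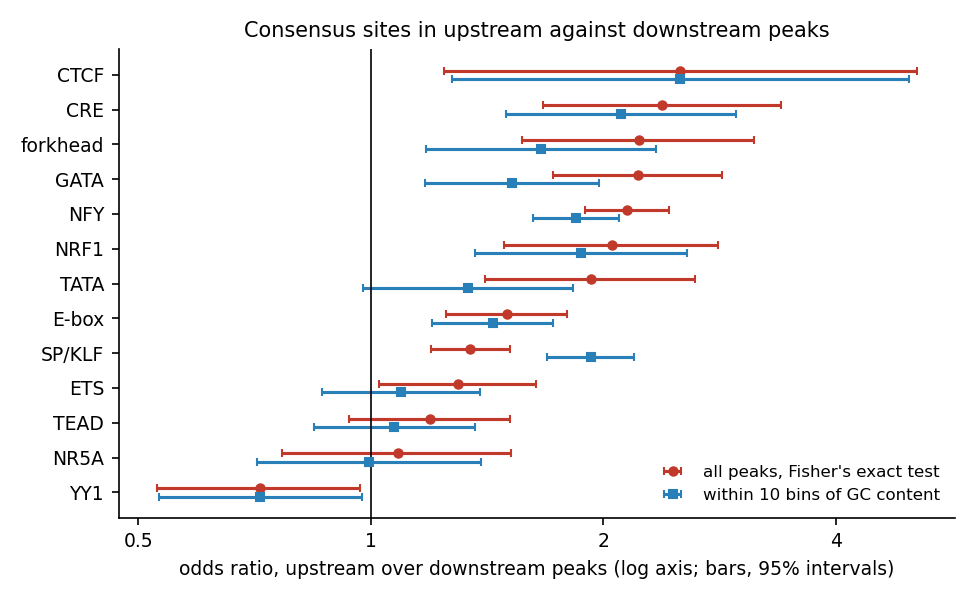
Odds ratio of holding a site in upstream over downstream peaks (x axis, log scale, with 95% intervals) for 13 consensus sites (y axis), over all peaks (red circles) and within 10 bins of GC content (blue squares). The interval lies above 1 in both estimates for CTCF, CRE, forkhead, GATA, NFY, NRF1, E-box and SP/KLF, and below 1 for YY1.

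Named gene groups were set against the share of all 20923 protein-coding genes, of which 8.88% had an upstream peak and 20.8% a downstream peak. Genes differ in whether they share a promoter region with a neighbour and in CpG content, which these counts do not adjust for, and no set test was run. Among RUNX factors and partners, 11 of 35 genes (31.4%) had an upstream peak and 13 (37.1%) a downstream one. The strongest upstream peaks were at Crebbp (fold 17.45), its paralog Ep300 (12.26) and the deacetylase gene Hdac1 (10.49). Of the RUNX genes, Runx3 alone had an upstream peak (fold 4.83). Runx1, Runx2 and Cbfb each had a downstream peak, with folds of 11.11, 5.55 and 15.92, and Foxl2, which encodes the forkhead factor of granulosa cells, had neither.

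Genes of the gonad had upstream peaks in small numbers, with shares on both sides of 8.88%. Of 30 pre-granulosa and ovary genes, 3 (10.0%) had an upstream peak, namely Znrf3, a WNT receptor regulator (fold 6.29), Lef1, a nuclear effector of WNT signalling (6.11), and Cdkn1b, a cell cycle inhibitor (4.13), while 12 had a downstream peak. Of 21 factors of the bipotential gonad, 3 (14.3%) did, at Kdm3a (fold 27.40), Gadd45g (12.43) and Gata4 (12.03), all over 8. None of 23 Sertoli and testis genes had an upstream peak, where 5 had a downstream one. Germ cell genes had 1 of 30, at Ythdc2, a meiotic RNA helicase gene (fold 6.85). Interstitial genes had 2 of 24, Pdgfra (9.81) and the hedgehog effector Gli2 (8.46), and endothelial and blood cell genes 2 of 27, Tal1 (7.40) and Nfe2 (4.63).

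In lists of signalling pathways the shares with an upstream peak ran from 13.8% to 37.0%. For downstream peaks they were 44.4% in Hippo, 44.7% in TGF-β and BMP, 40% in WNT and 31.0% in Notch genes. On both sides they lay above the shares over all coding genes (8.88% and 20.8%). The counts that follow are of upstream peaks. Hippo pathway genes had an upstream peak in 10 of 27 cases (37.0%), the strongest at Sav1, a scaffold of the kinase core (fold 33.32), Wwc2 (22.21) and Wwtr1, which encodes the coactivator TAZ (12.22). TGF-β and BMP genes had 9 of 38 (23.7%), led by the corepressor gene Ski (44.43) and the receptor genes Bmpr1a (16.04) and Acvr1b (9.79). WNT genes had 9 of 50, with the coreceptor gene Lrp6 (17.28), the ligand gene Wnt6 (17.03) and the scaffold gene Axin1 (11.72). Notch genes had 4 of 29 (13.8%), with Spen (35.54), the ligand gene Jag1 (12.96) and the protease gene Adam17 (9.54).

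Lists of chromatin regulators had an upstream peak in shares from 18.5% to 47.4%. For downstream peaks the shares were 41.2% in Polycomb and 29.6% in SWI/SNF complexes. In the Kmt2 and Set1 complexes, which methylate histone H3 at active promoters, 9 of 19 genes (47.4%) had an upstream peak and 5 (26.3%) a downstream one, at Kmt2a, Men1 (fold 10.18), Wdr5 (9.26) and others. In Polycomb complexes 9 of 34 (26.5%) did, the strongest at the accessory subunit genes Jarid2 (20.36) and Mtf2 (16.93) and at Suz12 (13.51). SWI/SNF remodelling complexes had 5 of 27 (18.5%), with Brd7 (7.10), Arid1b (6.48) and Ss18 (5.98). Factor families followed: 4 of 26 ETS genes (Etv6 17.59, Elf2 8.43, Ets2 6.66), 5 of 44 forkhead genes (Foxi3 8.23, Foxo6 7.40, Foxk2 5.18) and 2 of 39 Hox genes (Hoxa4 16.66, Hoxb9 4.32).

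Genes that most cells use gave a range of shares, from 30.3% (tRNA synthetases) to 40.4% (translation initiation factors) for downstream peaks. The counts that follow are of upstream peaks. Splicing factors had 14 of 68 (20.6%; Hnrnpr 48.75, U2af2 30.55, Hnrnpa0 12.75), cyclins and CDKs 11 of 45 (24.4%; Ccne2 9.26, Ccnd2 9.05, Cdk4 8.54), ubiquitin-conjugating enzymes 8 of 34 (23.5%; Ube2f 19.64, Ube2s 9.26, Ube2b 9.12) and Mediator and RNA polymerase II genes 8 of 46 (17.4%; Polr2j 11.50, Ccnc 6.79, Med13 6.08). Proteasome genes had 7 of 48 (14.6%; Psmd3 13.46, Psmg1 12.59, Psmb2 11.42), translation initiation factors 7 of 47 (14.9%; Eif2s3x 12.96, Eif3g 9.26, Eif2b5 6.71), cytosolic ribosomal proteins 9 of 82 (11.0%; Rpl27a 15.74, Rps19 12.17, Rpl30 9.42), RAB GTPases 6 of 59 (10.2%; Rab21 10.64, Rab28 6.58, Rab8a 6.17), tRNA synthetases 3 of 33 (9.09%; Gars 10.60, Nars 6.40, Qars 5.02) and mitochondrial ribosomal proteins 7 of 78 (8.97%; Mrpl52 10.88, Mrpl39 10.18, Mrpl45 8.83).

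Shares under 8.88% were found for the respiratory chain (5 of 76, 6.58%; Cox4i2 12.03, Ndufs7 11.72, Ndufa10 10.41), collagen chains (2 of 44; Col16a1 6.29, Col6a2 5.55) and DNA replication genes (1 of 41, at Pcna, the sliding clamp gene, fold 8.33). A single promoter region was found for 49 of the 76, 40 of the 44 and 27 of the 41 genes. Their downstream shares were 19.7%, 13.6% and 22.0%, where 20.8% of all coding genes had a downstream peak. The respiratory chain thus lay near the share over all coding genes on both sides. No upstream peak was found at any of 49 keratin genes or 1107 olfactory receptor genes, families used by few cell types.

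No gene had 3 or more upstream peaks, and 29 had 2, at the same or at separate TSSs. At Ep300 the peaks were 633 bp (fold 12.26, with a core) and 39 bp (fold 5.43, without) before the TSS, and at Jarid2 510 bp (4.78) and 145 bp (20.36), both without a core. The peak farther from its TSS had the higher fold at 17 of the 29 genes. A core was in 1 of the 2 peaks at 18 genes and in both at 0. Of the 1859 genes, 316 (17.0%) also had a downstream peak, where 20.8% of all coding genes had one. All coding genes include those that share a promoter region with a neighbour. The 17.0% and 20.8% are therefore not on an equal footing, and their difference was not tested.

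For 1633 upstream peaks (86.5%) the nearest TSS was the first of its gene, and for 255 it was a later, alternative one. Peaks at later TSSs had a median fold of 7.24 against 6.71, a core in 35.7% against 36.8% and a mean GC content of 67.6% against 65.2%. By annotation, 1587 midpoints (84.1%) lay outside all transcripts, 195 in an intron and 60 in an exon of the same gene, 27 in an intron and 19 in an exon of another gene. By chromosome, the genes with an upstream peak made up from 3.77% (X) to 12.5% of the coding genes.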

How the data were processed

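RUNX1 ChIP-seq and input libraries of pooled E14.5 CD1 ovaries were processed by the authors, who kept uniquely mapped reads, removed duplicates, merged the replicates, called peaks, reset each to 300 bp and kept those at least 4-fold above the input and the surrounding signal. HOMER 4.9, bedtools 2.24.0, Picard 1.110 and Bowtie 1.2 are listed by the submitters' notes as tools, with mm10 as the build. The deposited list gives for each peak a position, a fold ratio and a p-value, with 7 p-values given as 0. No read counts per peak are given there, so depth sets which peaks exist and gives no error for any of them. Labelled replicates could therefore not be compared.

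Peak midpoints were placed against the TSSs of 45756 curated RefSeq transcripts of 26180 genes (GRCm38.p6, the same assembly as mm10), and sequence was read from that genome. Where TSSs of 2 genes flanked a midpoint and pointed away from each other, the peak was counted as a divergent pair. Promoter windows of 300 bp were taken for coding genes with a single promoter region, centred 156 bp before the TSS. Sites were searched as exact consensus matches on both strands, and matches of different sites may overlap. Shares have exact binomial intervals, which cover counting error only. Classes were compared with two-sided Fisher's exact tests (SciPy), adjusted over the 13 sites with the Benjamini-Hochberg method. Mantel-Haenszel odds ratios over 10 GC bins, other thresholds, distances, cores and annotations were the alternatives. The functions were tested on simulated data. Sequences to print were taken only where at least 50 bases around the core were free of exons, predicted transcripts included (which left out Rfx3), and not from every chromosome.

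Genes named are those of the 10 strongest upstream peaks, with ties, up to 3 strongest of each of 32 gene lists, RUNX genes, Cbfb, Foxl2 and the genes at the limits of the rule; Ndufs7, Ep300 and Jarid2 in the text on core number and paired peaks, and the genes just outside the limits, were chosen after their values were seen. The class of peaks, the lists and the tests were chosen with earlier results of these data known, and patterns of 2 gene families were narrowed after their first counts.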

Additional observations from a re-analysis of the deposited data

How the results depend on the processing

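No paired analysis was possible because the peaks were called on merged replicates and carry no value per replicate. The odds ratio of the RUNX core in upstream over downstream peaks missed the threshold among peaks of p under 1e-20 (1.18), with TGCGGT alone (1.12) and within GC bins (1.07). Against distal peaks it turned with TGCGGT alone (1.09). The odds ratio of a fold of 8 or more with against without a core missed the threshold among peaks of p under 1e-20 (1.14). It also missed with TGTGGT alone (1.28), where peaks that held only TGCGGT were counted as without a core. Among the other sites, NR5A turned within GC bins (0.995), where it passed no threshold in either form, and ETS and TATA lost their calls (1.09 and 1.34). The number of upstream peaks was 3703 when any base within the upstream kilobase counted and 694 at fold 8 or more. The other 59 values kept their direction and their side of the threshold, or stayed within 1.5 times the number reported. The causes were not tested. The limit on all values is that merged calls hold no replicate error and that peaks under the authors' limit are not listed.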
